A study of Bos taurus with 9 samples.

Results

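The transcripts of 10 secreted growth factor genes were followed in bovine endometrial cells. The genes were FGF2, FGF7, FGF10, HGF, VEGFA, VEGFB, PGF, VEGFC, ANGPT1 and PDGFC, picked by name, and all 10 were found among the 17162 genes of the expression table. The study asked how the uterine lining of the cow responds to the hormones and the conceptus signal of early pregnancy. Its cells, named BEND, were grown from Holstein uteri collected at an abattoir, kept in medium with serum and passaged before use. The control group (CON) received no hormone and no interferon. The GA group received 17β-estradiol (E2, 1 nM) and progesterone (P4, 100 nM) for 12 h, and the GB group received the same hormones for 12 h and then interferon tau (IFNT, 100 ng/mL) for 12 h more. Each group had 3 libraries, described as biological replicates. Nothing states that they came from separate animals, so p-values measure the spread between these cultures. Collection times of CON and GA cells are not given separately. IFNT, culture time and the length of hormone exposure therefore cannot be told apart in the comparisons with GB.

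Fibroblast growth factors (FGFs), hepatocyte growth factor (HGF) and vascular endothelial growth factors (VEGFs) are secreted proteins that act on tyrosine kinase receptors of nearby cells. In the uterus, stromal FGF7, FGF10 and HGF are classical messengers from stroma to epithelium, while the VEGF and angiopoietin families act on blood and lymphatic vessels. FGFs and several VEGF forms also bind heparan sulfate on the cell surface, which shapes how far they travel and how well they bind their receptors.

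Expression was given as FPKM, fragments scaled to the exon length of a gene and to the mapped reads of its library, so levels of different genes can be set side by side per length. Summed over all genes, FPKM came to 1395620 to 1442720 per library. Read counts are not part of the table, and depth was compared only through the smallest values of 38 weakly expressed genes, which put the libraries within a relative range of 0.885 to 1.06. The labelled treatments were visible in the data. ISG15, an interferon-induced ubiquitin-like protein, was at 1.76 to 7.01 FPKM in CON and at 5536 to 5616 in GB. MX2, an interferon-induced antiviral GTPase, was at no more than 0.14 FPKM in CON and GA and at 753 to 762 in GB. GREB1, an estrogen-responsive gene, was higher in GA than in CON (log2FC 2.02, limma adjusted p = 0.00639). The study checked the cells by staining for a cytokeratin protein, which was not analysed here. At the RNA level the epithelial label was not visible. Of 15 epithelial markers 14 were in the table, and none exceeded 0.74 FPKM in any library, with KRT18 and KRT19 the highest by mean and CLDN7 and OVOL1 listed at 0 in at least 8 libraries. All 15 stromal fibroblast markers were expressed, led by S100A4 at 11460 to 14817 FPKM and VIM at 7773 to 9570. Of 12 endothelial markers 3 reached the tests, with no value above 3.03 FPKM. The cells are therefore called BEND here, without a cell type.

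Most of the 10 genes were strongly expressed. In CON, FGF2 stood highest with 356 ± 17.8 FPKM (SD, n = 3), above 94.9% of the 12578 tested genes. VEGFA followed with 186 ± 23.5 FPKM, VEGFC with 172 ± 6.17 and FGF7 with 139 ± 8.19. The VEGFA and VEGFC libraries overlapped, so their order in CON was not larger than the spread. VEGFB was at 73.6 ± 8.81 FPKM, HGF at 39.4 ± 3.91, PDGFC at 25.03 ± 1.32 and PGF at 7.06 ± 0.0643. FGF10 (0.487 ± 0.235 FPKM) and ANGPT1 (0.403 ± 0.227) were near the bottom of the tested genes, and their CON libraries overlapped each other.

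The order changed in GB. FGF2 (217 ± 7.23 FPKM) and VEGFC (215 ± 15.6) stood together at the top, with overlapping libraries. FGF7 (108 ± 6.10) and VEGFA (97.9 ± 14.9) also overlapped, and VEGFB was at 52.5 ± 0.444. PDGFC (32.5 ± 3.93) was above HGF (17.6 ± 3.84) in each GB library, whereas in CON and GA every HGF value was above every PDGFC value.

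**Figure D1:**
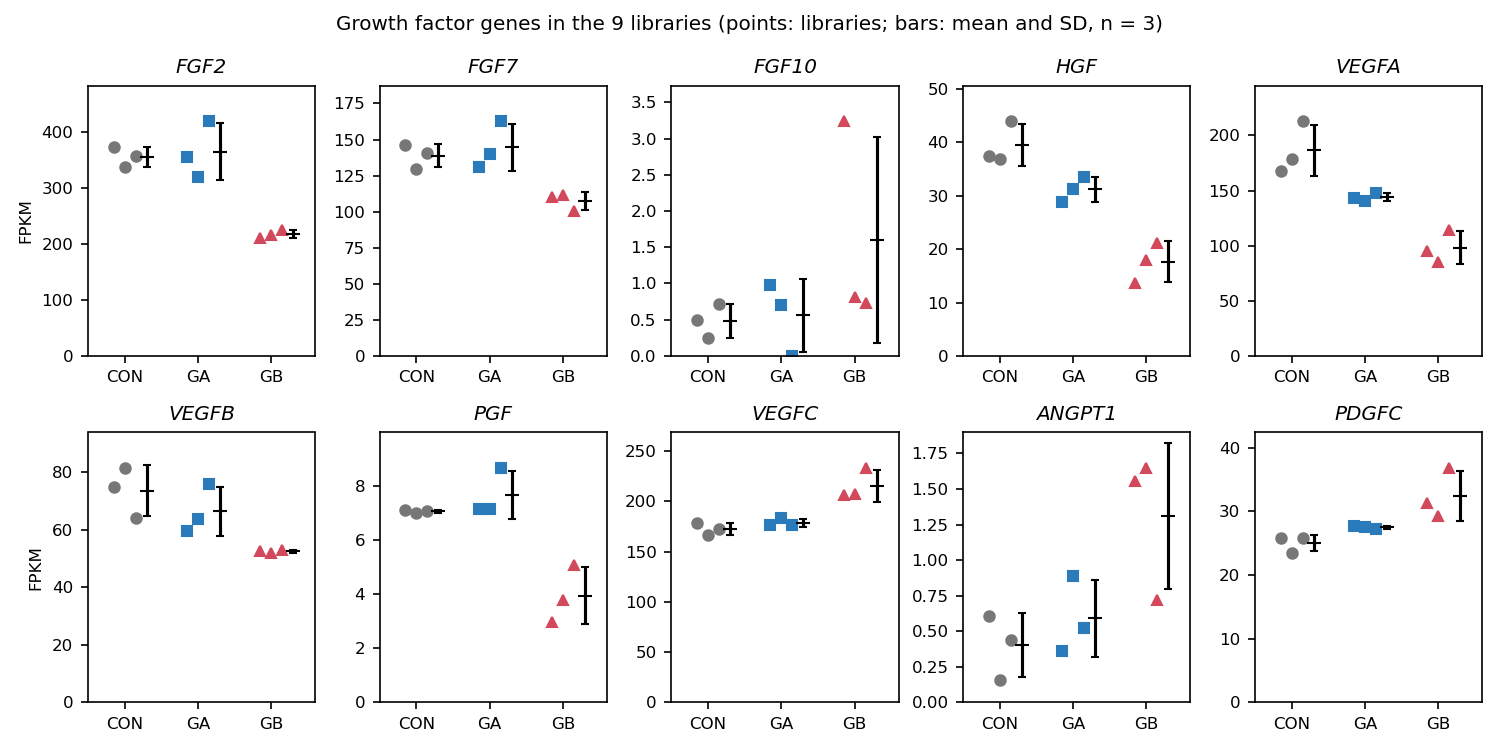
FPKM of the 10 growth factor genes (vertical axes, starting at 0, 1 scale per gene) in the 3 libraries of CON (circles), GA (squares) and GB (triangles), with the mean and SD beside each group. The GB libraries of FGF2, FGF7, HGF, VEGFA, VEGFB and PGF lie below all CON and GA libraries, and those of VEGFC and PDGFC lie above them.

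Differences were tested with limma on log2(FPKM + 0.5) over the 12578 genes whose mean FPKM reached 0.5, with Benjamini-Hochberg adjustment, and a DEG had an absolute log2FC above 1 and an adjusted p under 0.05. In GB vs. CON, 9 of the 10 genes had an adjusted p under 0.05, against 33.5% of all tested genes, with 6 lower (17.3% of all genes) and 3 higher (16.2%) in GB. The 9 include ANGPT1, which reached the filter only through its GB libraries, and with a mean FPKM minimum of 1 the count was 8. HGF alone was a DEG, where 4.01% of all tested genes were. In GB vs. GA, 7 genes had an adjusted p under 0.05, against 29% of all tested genes, with 6 lower (19.2% of all genes) and 1 higher (9.87%), and limma gave 0 DEGs, against 3.64%. At an unadjusted p under 0.05 there were 9 of the 10, ANGPT1 among them, against 40% of all tested genes. In GA vs. CON, limma gave no growth factor gene an adjusted p under 0.05, where 0.453% of all tested genes had one and 0.0716% were DEGs. At an unadjusted p under 0.05 there were 2 (HGF and VEGFA), against 19.3% of all genes. The median log2FC of the 10 genes was −0.42 in GB vs. CON (−0.016 over all tested genes), −0.37 in GB vs. GA (−0.075) and 0.039 in GA vs. CON (0.061). The GB comparisons share their GB libraries, so they are given side by side and not as separate evidence.

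**Figure D2:**
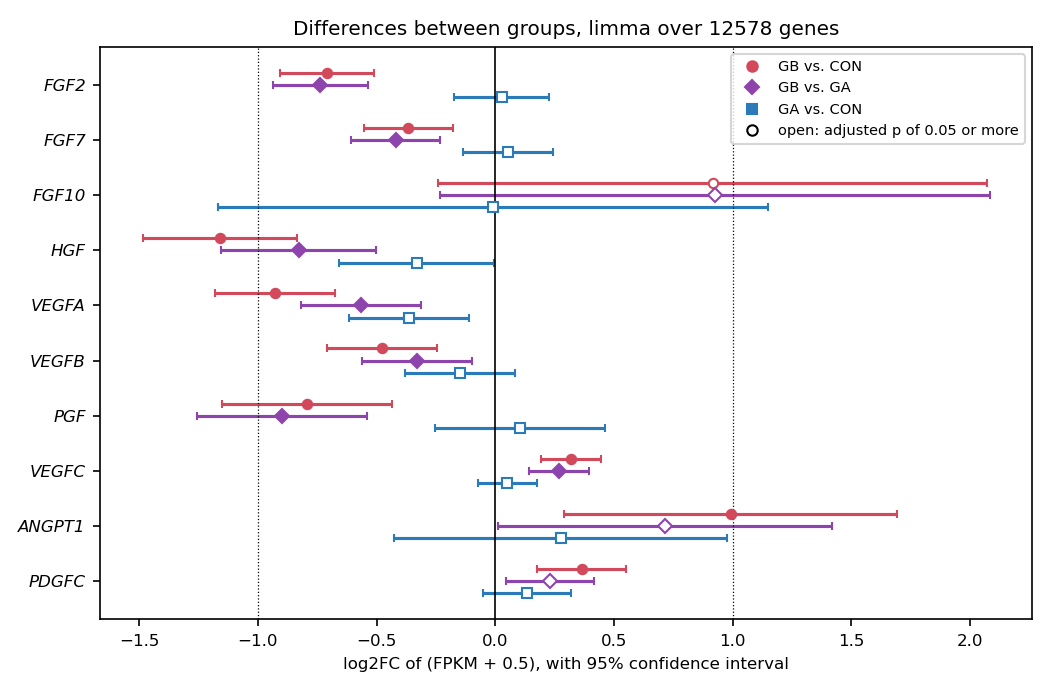
log2FC of (FPKM + 0.5) for each growth factor gene (horizontal axis, with 95% confidence intervals from limma) in GB vs. CON (circles), GB vs. GA (diamonds) and GA vs. CON (squares). Filled symbols have an adjusted p under 0.05 and the dotted lines mark a log2FC of 1 in either direction. HGF in GB vs. CON is the only filled symbol beyond a dotted line.

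HGF, which drives proliferation, motility and tubule formation through its receptor MET, showed the largest fall of the 10 genes in GB vs. CON, while against GA the fitted fall of PGF was slightly larger. Its values were 37.5, 36.9 and 43.9 FPKM in CON, 28.9, 31.2 and 33.5 in GA, and 13.6, 18.05 and 21.2 in GB. The 3 groups did not overlap, with GA between CON and GB. The GB mean was 44.7% of the CON mean. The log2FC was −1.16 in GB vs. CON (SE 0.144, limma adjusted p = 0.000318) and −0.83 in GB vs. GA (adjusted p = 0.00258). HGF passed the fold threshold of a DEG in GB vs. CON except when GB1, its lowest library, was left out, which gave a log2FC of −0.99. In GA vs. CON it was −0.33, with a 95% interval of −0.66 to −0.0056 and a limma adjusted p of 0.251. For every gene measured in these cultures, fewer cells of one kind and less RNA per cell cannot be told apart. The summed FPKM of the 15 stromal markers was also lower in GB (28153 to 29188, against 33108 to 33766 in CON and 32499 to 32973 in GA). Most of that sum came from S100A4, with a mean of 14709 FPKM in CON against 11868 in GB, and VIM, with 9082 against 7777. At an adjusted p under 0.05, 7 of the 15 were lower and 1 (PDGFRA) was higher in GB vs. CON. Among all tested genes the shares were 17.3% and 16.2%. In GB vs. GA 9 were lower and 1 (PDGFRA) was higher, against 19.2% and 9.87% of all tested genes. The part of the stromal markers in these differences was not tested. The summed FPKM of the perivascular markers was lower in GB (2599 to 2722) than in CON (2967 to 3551). The GA sums, from 2714 to 2996, overlapped those of GB. Most of this sum was ACTA2, with a CON mean of 2856 FPKM and a GB mean of 2410. Against GA, ACTA2 did not pass (log2FC −0.12, limma adjusted p = 0.271). Of the 5 perivascular markers tested, 1 was higher (NOTCH3) and 3 were lower in GB vs. CON at an adjusted p under 0.05. The shares of all tested genes were 16.2% and 17.3%. Against GA, NOTCH3 was again higher and 2 were lower, beside shares of 9.87% and 19.2%. NOTCH3 was the only DEG of this list in either comparison. Its log2FC was 2.78 against CON and 3.06 against GA (limma adjusted p = 6.02e-08 and 2.92e-08). The GB mean of NOTCH3 was 11.0 FPKM, while the CON mean was 1.17 and the GA mean 0.877. The part of perivascular markers was not tested either. The 2 immune markers that were tested, CD14 and CD68, did not pass. Of the 3 endothelial markers tested, none passed when GB was set against CON. Against GA, CDH5 alone was higher (log2FC 0.68, limma adjusted p = 0.0395). Its level was low, at 1.55 to 2.52 FPKM in GB and 0.85 to 1.19 in GA. The part of endothelial markers was not tested.

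FGF2, a heparin-binding FGF that acts on many cell types, was the most abundant of the 10 genes in every CON and GA library. It was at 373, 338 and 356 FPKM in CON, 355, 319 and 419.5 in GA, and 211, 216 and 225 in GB. CON and GA overlapped, and each GB value was below all of them. The GB mean was 61.1% of CON, a log2FC of −0.71 (SE 0.0882, limma adjusted p = 0.000314), and the log2FC against GA was −0.74 (adjusted p = 0.000293). In the RefSeq annotation (assembly ARS-UCD2.0) FGF2 overlaps NUDT6, a nudix hydrolase gene long known as its antisense partner. NUDT6 was at 298, 233 and 328 FPKM in CON, 352, 346 and 416 in GA, and 207, 212 and 245 in GB. Its CON and GB libraries overlapped (log2FC −0.36, limma adjusted p = 0.0555), while GB was below GA (log2FC −0.74, adjusted p = 0.00224). The kit was directional, but whether strand was used in the counting is not given in the sources used here. Reads of FGF2 and NUDT6 may therefore not be fully separated.

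FGF7, or keratinocyte growth factor, signals from mesenchymal cells to the epithelial form of FGFR2. It was at 146, 129.9 and 141 FPKM in CON, 131, 140.1 and 163 in GA, and 110.2, 112 and 101 in GB. The GB libraries were the lowest 3 of the 9. FAM227B, which overlaps FGF7 in RefSeq, did not exceed 0.15 FPKM. The fall was smaller than that of FGF2 and HGF, to 77.5% of the CON mean, with a log2FC of −0.37 in GB vs. CON (SE 0.0833, limma adjusted p = 0.00869) and −0.42 in GB vs. GA (adjusted p = 0.00515).

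FGF10, which signals through the same receptor form, was barely expressed. Its values were 0.49, 0.25 and 0.72 FPKM in CON, 0.98, 0.70 and 0 in GA, and 3.24, 0.82 and 0.73 in GB. A single library, GB1, held the only value above 1. The log2FC of 0.91 in GB vs. CON had a 95% interval of −0.24 to 2.07 and did not pass the test (limma adjusted p = 0.202). Its mean in CON was under 0.5 FPKM. The reads behind these levels are unknown, since the table holds no counts.

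VEGFA, the main inducer of blood vessel growth and a gene regulated by oxygen and by steroids, was at 168, 178 and 213 FPKM in CON, 143, 141 and 148 in GA, and 94.8, 84.85 and 114 in GB. As for HGF, the groups did not overlap and GA lay between CON and GB. GA was at 77.3% of the CON mean and GB at 52.6%. The log2FC was −0.93 in GB vs. CON (SE 0.112, limma adjusted p = 0.000262), and −0.56 in GB vs. GA (adjusted p = 0.00521). Without GB3, its highest GB library, the first of these became −1.04 and VEGFA counted as a DEG. In GA vs. CON the log2FC of −0.36 had an unadjusted p of 0.00983 and a 95% interval of −0.62 to −0.11, but the limma adjusted p was 0.146.

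VEGFB, which binds FLT1 and is linked to lipid handling and vessel survival, moved less. It was at 75.0, 81.6 and 64.15 FPKM in CON, 59.4, 63.8 and 76.0 in GA, and 52.6, 52.0 and 52.8 in GB. CON and GA overlapped widely, and the 3 GB values lay within 1 FPKM of each other below both. The log2FC was −0.48 in GB vs. CON (SE 0.103, limma adjusted p = 0.00672). Against GA it was −0.33 (adjusted p = 0.0394), a call that was lost when any 1 of 6 libraries was left out (adjusted p up to 0.123) and under 5 other settings.

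PGF, placental growth factor, binds FLT1 as VEGFB does. It was at 7.11, 6.99 and 7.09 FPKM in CON, 7.16, 7.15 and 8.68 in GA, and 2.97, 3.80 and 5.07 in GB. The CON values were nearly equal, whereas the GB values were spread more widely. GB fell to 55.9% of the CON mean, with a log2FC of −0.79 in GB vs. CON (SE 0.159, limma adjusted p = 0.00462) and −0.90 in GB vs. GA (adjusted p = 0.00280). Without GB3 the latter was −1.07, and PGF then counted as a DEG.

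VEGFC, the chief lymphatic growth factor, went the other way. It was at 178, 166 and 172 FPKM in CON, 177, 183 and 176 in GA, and 206, 207 and 233.5 in GB. All GB values were above all CON and GA values, which overlapped. The rise was to 125% of the CON mean, with a log2FC of 0.32 in GB vs. CON (SE 0.0554, limma adjusted p = 0.00216) and 0.27 in GB vs. GA (adjusted p = 0.00624).

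PDGFC, a platelet-derived growth factor that signals through PDGFRA, was at 25.75, 23.5 and 25.8 FPKM in CON, 27.7, 27.5 and 27.2 in GA, and 31.3, 29.3 and 36.9 in GB. The groups did not overlap. Its log2FC was 0.36 in GB vs. CON (SE 0.0828, limma adjusted p = 0.00870). Against GA the log2FC of 0.23 did not pass (adjusted p = 0.0655), but it passed with TPM scaling, with median-of-ratios scaling and without GB2 (adjusted p of 0.0458, 0.0201 and 0.0317).

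ANGPT1, the agonist of the endothelial receptor TEK, was at 0.61, 0.16 and 0.44 FPKM in CON, 0.36, 0.89 and 0.52 in GA, and 1.56, 1.65 and 0.72 in GB. GB and CON did not overlap, while GB3 lay inside the GA range. The log2FC was 0.99 in GB vs. CON (SE 0.312, limma adjusted p = 0.0361) and 0.72 in GB vs. GA (adjusted p = 0.119). The first call was lost when CON2, CON3, GA3, GB1 or GB2 was left out (adjusted p between 0.0502 and 0.115). It also fell short with the replicate number as a block (0.0600) and in a fit of CON and GB alone (0.0530). ANGPT1 reached the mean of 0.5 FPKM needed for testing only through its GB libraries, and in RefSeq it overlaps a pseudogene whose reads may not be fully separated.

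Within GB the libraries were not equal. GB3 held the highest GB value of 7 of the 10 genes, both among those that fell (FGF2, HGF, VEGFA, VEGFB and PGF) and among those that rose (VEGFC and PDGFC). The groups did not overlap for all 10 genes when GB was set against CON (46.1% of all tested genes) and for 8 against GA (46.8%). The 10 include FGF10, whose lowest GB value of 0.73 FPKM barely cleared the highest CON value of 0.72 and whose test failed. They also include ANGPT1 (0.72 against 0.61 FPKM), which reached the filter only through its GB libraries. In GA vs. CON the groups did not overlap for 4 genes (24.7%), namely HGF and VEGFA, lower in GA (6.13% of all genes), and PGF and PDGFC, higher (18.6%).

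The summed FPKM of the 10 genes was 999 ± 33.5 in CON (SD, n = 3), 965 ± 75.1 in GA and 748 ± 37.5 in GB, and its make-up shifted. VEGFC made up 17.2% ± 0.399 of the sum in CON, 18.6% ± 1.68 in GA and 28.8% ± 0.639 in GB. FGF2 made up 35.6% ± 1.12 in CON, 37.7% ± 2.54 in GA and 29.1% ± 0.640 in GB. The share of VEGFA was 18.6% ± 2.09, 14.95% ± 0.798 and 13.1% ± 1.37 in the same order. The share of FGF7 stayed between 12.7% and 15.5% in the 9 libraries.

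These opposite movements were plain in ratios within a library, chosen after the values had been seen. The ratio of VEGFC to VEGFA was 1.06, 0.932 and 0.810 in CON, 1.23, 1.299 and 1.19 in GA, and 2.17, 2.44 and 2.04 in GB. The lymphatic factor was thus about level with the blood vessel factor in CON and above it in each GA and each GB library. The ratio of the receptor MET to its ligand HGF was 0.793, 0.816 and 0.637 in CON, 1.06, 1.01 and 0.897 in GA, and 2.54, 2.05 and 1.70 in GB. The ratio of FLT1 to VEGFA ran from 0.657 to 0.843 in CON, from 0.933 to 1.06 in GA and from 1.64 to 2.16 in GB. For each of these 3 ratios no pair of groups overlapped, so every pair gave p = 0.1 in a two-sided exact permutation test. This is the smallest p that 3 against 3 libraries allow. It follows from the lack of overlap in ratios chosen after the values had been seen, so the test adds nothing to the values. Of the 4 ratios computed, that of VEGFA to PGF, both of them lower in GB, overlapped between CON (23.6 to 30.0) and GB (22.3 to 31.9), with an exact permutation p of 0.8. In GA this ratio was lower than in every CON and GB library (17.0 to 20.02), which again fixes the exact permutation p at 0.1 against either group.

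**Figure D3:**
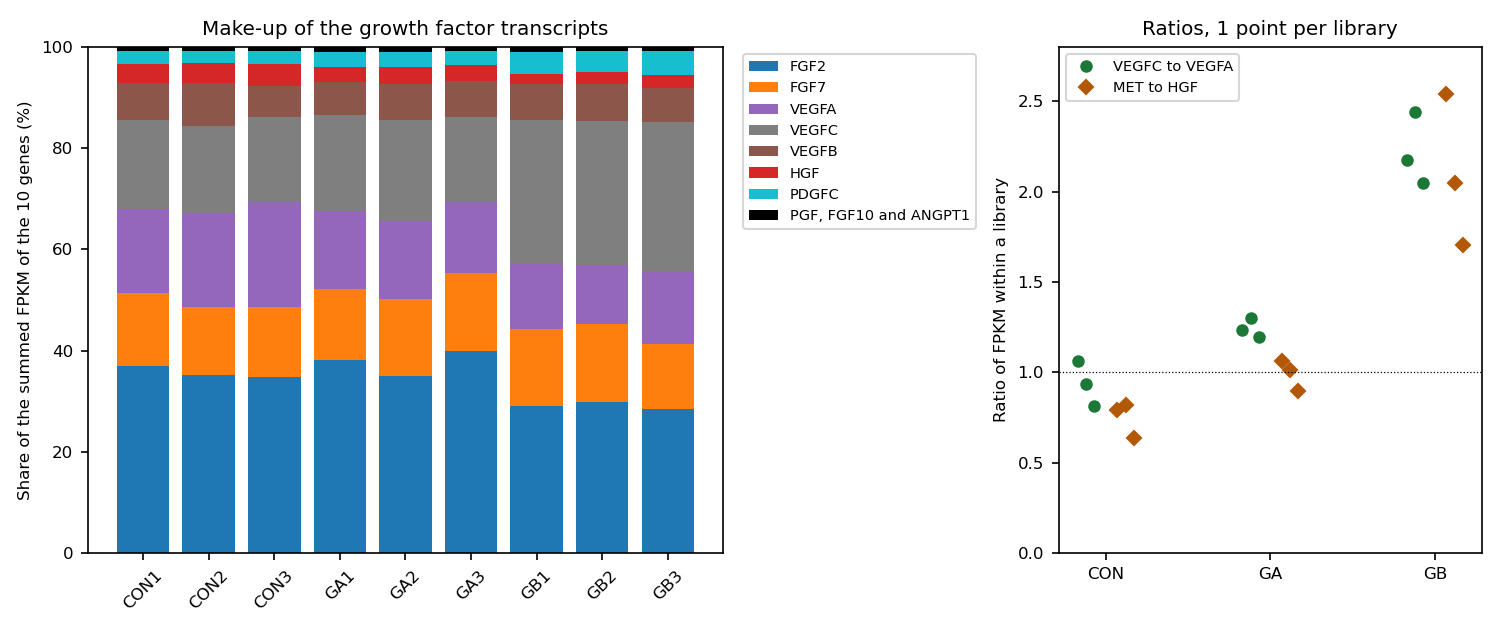
Left, share of each growth factor gene in the summed FPKM of the 10 genes (vertical axis, percent) in each of the 9 libraries. Right, the ratio of VEGFC to VEGFA (circles) and of MET to HGF (diamonds) in each library, with a dotted line at 1. Both ratios lie between 0.637 and 1.299 in CON and GA and between 1.70 and 2.54 in GB.

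The receptors of these ligands were mostly expressed as well, and none of them was a DEG. Of 15 receptor genes 10 were tested. In GB vs. CON 3 were higher and 3 lower at an adjusted p under 0.05, and in GB vs. GA 3 were higher and 2 lower. Among all tested genes the shares were 16.2% higher and 17.3% lower in GB vs. CON, and 9.87% and 19.2% in GB vs. GA. The median log2FC of the 10 was −0.058 in GB vs. CON, close to that of all tested genes.

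MET, the HGF receptor, moved against its ligand. It was at 29.7, 30.1 and 28.0 FPKM in CON, 30.8, 31.5 and 30.1 in GA, and 34.5, 36.95 and 36.1 in GB, so that GB lay above the other groups. The log2FC was 0.29 in GB vs. CON (limma adjusted p = 0.00270) and 0.22 in GB vs. GA (adjusted p = 0.0130, or 0.0510 without GB2).

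FLT1, or VEGFR1, which binds VEGFA, VEGFB and PGF, also rose while those 3 ligands fell. It was at 142, 139 and 139.8 FPKM in CON, 148, 149.7 and 138 in GA, and 178, 183 and 187 in GB. The GB libraries were again the highest 3, with a log2FC of 0.38 against CON and 0.33 against GA (limma adjusted p = 0.000187 and 0.000560). KDR, or VEGFR2, the principal signalling receptor of VEGFA in endothelium, was under the filter of 0.5 FPKM and was not tested. Its values were at most 0.11 FPKM in CON and GA and 0.42, 0.25 and 0.60 in GB. FLT4, the VEGFC receptor of lymphatic endothelium, was listed at 0 in CON and GA and reached 0.03 FPKM in GB.

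The neuropilins, co-receptors for VEGFs and semaphorins, were expressed at intermediate levels. NRP1 was between 76.5 and 86.1 FPKM in all libraries (log2FC 0.0032 in GB vs. CON, 95% interval −0.10 to 0.11). NRP2, which favours VEGFC, ran from 26.9 to 28.3 FPKM in CON, from 27.5 to 29.2 in GA and from 22.6 to 23.1 in GB. This fall passed in both GB comparisons, with a log2FC of −0.28 against CON and −0.30 against GA (limma adjusted p = 0.00261 and 0.00194).

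Among FGF receptors, FGFR1 was at 53.7 to 64.4 FPKM, FGFR2 at 9.31 to 13.1 and FGFR3 at 2.30 to 3.70, and none passed the test in any comparison. FGFR4 did not exceed 0.09 FPKM. FGFRL1, a receptor-like protein that binds FGFs and lacks the kinase domain, was at 4.26, 4.03 and 3.81 FPKM in CON, 4.82, 5.50 and 3.65 in GA, and 2.28, 2.07 and 2.13 in GB. The 3 GB values were well below the other 6, with a log2FC of −0.77 against CON and −0.94 against GA (limma adjusted p = 0.00284 and 0.00108).

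PDGFRA, the receptor of PDGFC, rose with its ligand from 144, 158 and 149 FPKM in CON, and 153, 150.3 and 163 in GA, to 194.5, 201 and 192 in GB. The log2FC was 0.38 against CON and 0.33 against GA (limma adjusted p = 0.000415 and 0.00113). PDGFRB, at 256, 299.6 and 272 FPKM in CON, was at 212, 216 and 225 in GA and 239, 232 and 229 in GB. Its log2FC was −0.24 in GB vs. CON (adjusted p = 0.0110) and −0.34 in GA vs. CON (adjusted p = 0.0480, which rose above 0.05 with any 1 library left out). The ANGPT1 receptor TEK stayed at or under 0.26 FPKM and TIE1, a related orphan receptor, at or under 0.13.

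**Figure D4:**
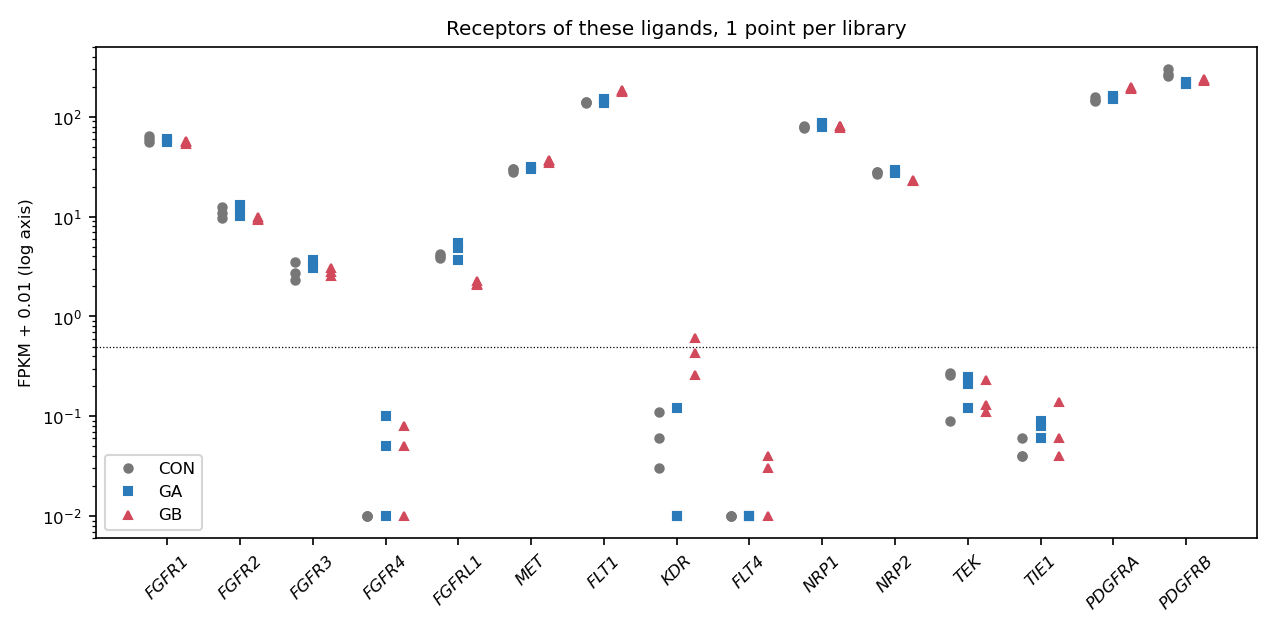
FPKM + 0.01 of the 15 receptor genes (vertical axis, log scale) in each library of CON (circles), GA (squares) and GB (triangles). The dotted line marks 0.5 FPKM. The endothelial receptors KDR, FLT4, TEK and TIE1 lie near or under 0.60 FPKM in every library, whereas MET, FLT1, the neuropilins and the PDGF receptors lie between 22.6 and 299.6.

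Other ligands of the same families were mostly far less abundant. Genes named from here on that are neither a DEG nor the most abundant of their list were chosen after their values had been seen. Of 26 listed, 18 were in the table and 10 were tested. In GB vs. CON 3 of these (FGF19, FGF22 and PDGFA) had an adjusted p under 0.05, against 33.5% of all tested genes. So did 3 in GB vs. GA (FGF1, FGF19 and PDGFD), against 29%. Each of them was lower in GB. The most abundant was FGF19, an FGF best known as an intestinal hormone, at 19.8, 20.7 and 27.8 FPKM in CON, 21.7, 23.6 and 21.1 in GA, and 13.5, 13.0 and 15.3 in GB. GB lay below the other groups, with a log2FC of −0.68 against CON and −0.65 against GA (limma adjusted p = 0.00282 and 0.00408). PDGFA, a growth factor for mesenchymal cells, was at 3.94, 6.22 and 7.42 FPKM in CON, 3.69, 3.75 and 4.52 in GA, and 2.22, 2.93 and 2.64 in GB. Its log2FC of −1.004 in GB vs. CON sat at the DEG threshold (limma adjusted p = 0.00478) and no longer passed it without CON2, CON3 or GB1 or with a pseudocount of 1. FGF1 was a DEG in GB vs. GA (log2FC −2.03, adjusted p = 0.0186). Its values were 0.45, 0 and 1.32 FPKM in CON, 2.97, 0.88 and 2.90 in GA, and 0, 0 and 0.45 in GB. It reached the filter only through its GA libraries, against which it was compared, and the call was lost without GA1, GA3, GB1 or GB2.

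Proteins that process, release or inhibit these ligands moved in both directions. Of 15 tested, 4 were higher (ADAMTS3, THBS1, SEMA3A and SEMA3C) and 7 lower in GB vs. CON at an adjusted p under 0.05. In GB vs. GA 3 were higher (ADAMTS3, THBS1 and SEMA3A) and 7 lower. In both comparisons the lower genes were THBS2, SEMA3F, VASH1, PLAU, PLAUR, PLAT and FURIN. Over all tested genes 16.2% were higher and 17.3% lower in GB vs. CON, and 9.87% and 19.2% in GB vs. GA. THBS1, thrombospondin 1, a matrix inhibitor of blood vessel growth and by far the most abundant gene of the list, was at 4102, 4679 and 3965 FPKM in CON, 4386, 4539 and 4157 in GA, and 5825, 5844 and 5762 in GB. The GB libraries were the highest 3 (log2FC 0.46 against CON and 0.41 against GA, limma adjusted p = 0.000547 and 0.00108). THBS2, thrombospondin 2, was lower in GB, with a log2FC of −0.59 against CON and −0.53 against GA (limma adjusted p = 0.00132 and 0.00286). VASH1, vasohibin 1, another inhibitor of vessel growth, was the only DEG of the list, and it fell. It was at 3.76, 2.42 and 2.88 FPKM in CON, 2.94, 3.89 and 4.10 in GA, and 0.47, 1.34 and 1.10 in GB. Its log2FC was −1.29 against CON and −1.53 against GA (limma adjusted p = 0.00403 and 0.00189).

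Some proteases of this list can activate HGF or VEGFC. PLAU, urokinase, which can cleave the HGF precursor, was at 167, 199.6 and 182 FPKM in CON, 119.7, 124 and 144 in GA, and 101, 104 and 106 in GB. The groups did not overlap, with GA in the middle as for HGF itself. Its log2FC was −0.81 in GB vs. CON (limma adjusted p = 7.34e-05), −0.31 in GB vs. GA (0.0192) and −0.50 in GA vs. CON (0.0405). The last 2 calls were lost when single libraries were left out, 3 libraries for the first of them and 8 for the other. FURIN and ADAMTS3, which both take part in the maturation of VEGFC, moved apart. FURIN had a log2FC of −0.41 and ADAMTS3 of 0.38 in GB vs. CON (limma adjusted p = 0.000843 and 0.00395).

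The heparan sulfate proteoglycans and their editing enzymes showed no common direction. Of 19 tested, 5 were higher and 4 lower in each GB comparison, and the median log2FC was 0.0038 in GB vs. CON. Of all tested genes 16.2% were higher and 17.3% lower in GB vs. CON, and 9.87% and 19.2% in GB vs. GA. Higher in both were SDC1, GPC4, AGRN and EXT1, and lower in both were SDC2, HSPG2 and SULF2. With single libraries left out, the call of EXT1 in GB vs. CON held in 4 of 9 fits. That of GPC4 in GB vs. GA held in 6 of 9. GPC1, glypican 1, a low-affinity co-receptor for FGF2, was the most abundant, at 463, 498 and 482 FPKM in CON, 429.7, 425 and 423 in GA, and 404, 379 and 427 in GB. It was lower in GB than in CON (log2FC −0.26, limma adjusted p = 0.00373) and did not pass in GB vs. GA (adjusted p = 0.265). The 2 DEGs of the list both rose. AGRN, agrin, a proteoglycan of basement membranes, went from 4.85, 5.73 and 5.51 FPKM in CON to 24.6, 24.1 and 24.4 in GB (log2FC 2.09, limma adjusted p = 1.91e-07). SDC1, syndecan 1, a transmembrane proteoglycan that binds FGFs and HGF, went from 84.0, 83.3 and 92.5 FPKM in CON to 173, 172 and 208 in GB (log2FC 1.08, adjusted p = 9.81e-06), with 0.99 when GB3 was left out. Neither gene differed by more than the spread in GA vs. CON.

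Downstream of the receptors, 13 adaptor genes were tested. In GB vs. CON 2 were higher (GAB1 and SHC1, against 16.2% of all tested genes) and 1 was lower (PTPN11, against 17.3%) at an adjusted p under 0.05. In GB vs. GA SHC1 was higher (9.87% of all tested genes) and 5 were lower (FRS2, SOS1, SOS2, PTPN11 and CBL, against 19.2%). The most abundant was SHC1, which links active receptors to the RAS pathway, with 204 to 235 FPKM in CON, GA at 226 to 233 and GB at 277 to 287 (log2FC 0.35 against CON and 0.29 against GA, limma adjusted p = 0.000910 and 0.00278).

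Genes that ERK signalling induces, or that feed back on it, are a common readout of FGF and HGF activity, although many other signals reach them. Of 17 tested, 1 was higher (SPRY1) and 8 were lower in GB vs. CON at an adjusted p under 0.05, and 7, each of them lower, passed in GB vs. GA. Over all tested genes 17.3% and 19.2% were lower in these comparisons, and 16.2% were higher in GB vs. CON. With single libraries left out, the GB vs. CON calls of ETV4, DUSP5, SPRED1 and SPRY1 held in 2, 3, 5 and 5 of 9 fits. That of PHLDA1 in GB vs. GA held in 7 of 9. The list held no DEG, and its median log2FC was −0.24 and −0.20. CCND1, cyclin D1, the most abundant of the list, was at 877, 908 and 903 FPKM in CON, 864, 867 and 841 in GA, and 632, 631 and 633 in GB. Its log2FC was −0.50 against CON and −0.44 against GA (limma adjusted p = 3.41e-06 and 9.92e-06). SPRY2, a feedback inhibitor of receptor signalling, went from 16.8, 19.2 and 19.5 FPKM in CON to 10.7, 10.7 and 11.0 in GB (log2FC −0.75, limma adjusted p = 7.30e-05). DUSP6, an ERK phosphatase, overlapped between the groups (81.4 to 90.1 FPKM in CON and 86.3 to 100.4 in GB, limma adjusted p = 0.233). In GA vs. CON the only gene of the list past the threshold was EGR1, an immediate early transcription factor, which was higher in GA (log2FC 0.66, adjusted p = 0.0123, lost without CON1, GA1 or GA3).

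VEGFA is a classical hypoxia target, so 28 hypoxia regulators and response genes were set beside it. Of 25 tested, 3 were higher (SLC2A1, ADM and EGLN3) and 5 lower (ARNT2, LDHA, NDRG1, P4HA2 and PDK1) in GB vs. CON at an adjusted p under 0.05. Against GA only SLC2A1 was higher and 7 genes were lower. The shares of all tested genes were 16.2% higher and 17.3% lower in GB vs. CON, and 9.87% and 19.2% in GB vs. GA. The median log2FC of the list, which mixes regulators with response genes, was −0.0015 in GB vs. CON, and VEGFA was at −0.93. A part of hypoxia signalling in the fall of VEGFA was not tested. ENO1, a glycolytic enzyme and the most abundant of the list, was at 2412 to 2584 FPKM in CON and 2466 to 2482 in GB and did not pass. The DEGs moved in opposite directions. SLC2A1, the glucose transporter GLUT1, rose from 18.1, 16.6 and 19.1 FPKM in CON, and 17.9, 15.01 and 16.7 in GA, to 41.2, 37.1 and 45.1 in GB (log2FC 1.17 and 1.29, limma adjusted p = 1.49e-05 and 8.25e-06). PDK1, a kinase that restrains entry of pyruvate into mitochondria, was at 7.13, 5.96 and 7.09 FPKM in CON, 8.40, 10.2 and 8.56 in GA, and 2.76, 3.60 and 4.24 in GB. It was a DEG only in GB vs. GA (log2FC −1.25, adjusted p = 0.000248), with −0.85 in GB vs. CON (adjusted p = 0.00204). HIF1A, the oxygen-regulated transcription factor, was at 62.5 to 65.3 FPKM in CON and 66.9 to 71.6 in GB (log2FC 0.11, adjusted p = 0.0949).

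**Figure D5:**
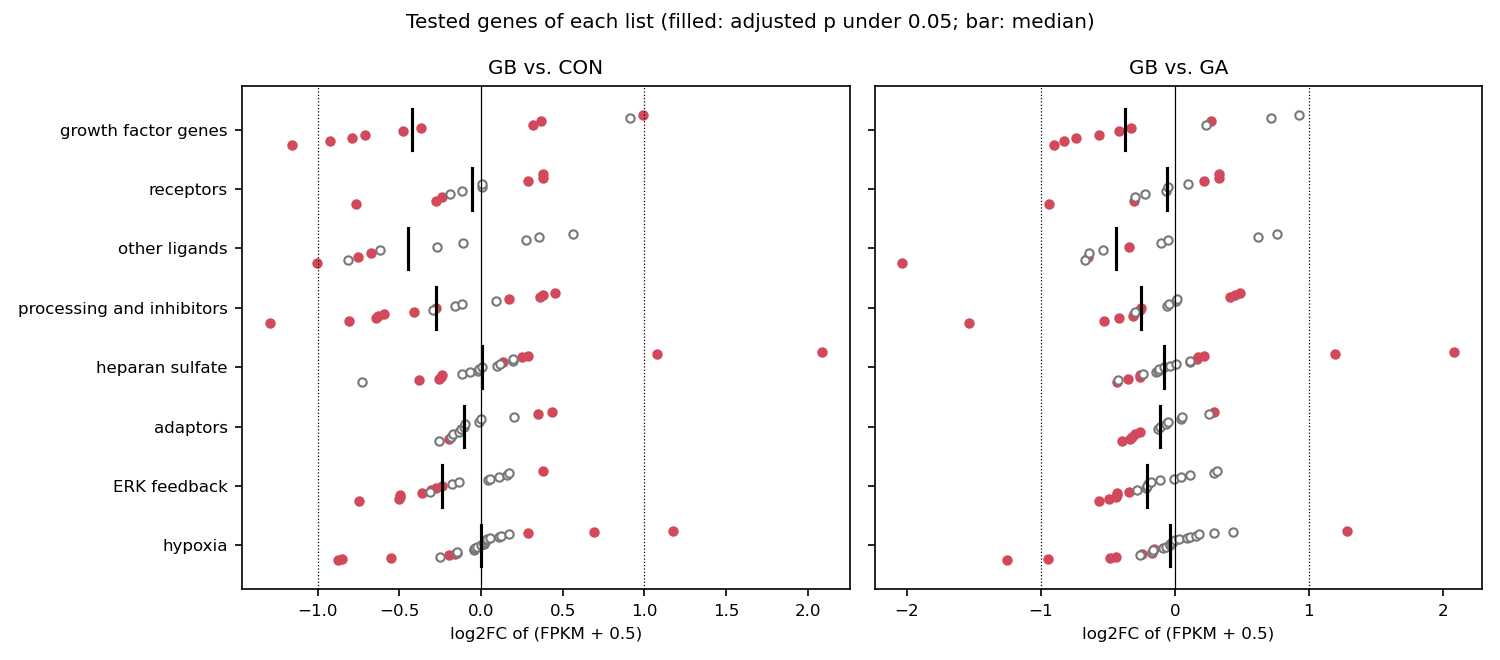
log2FC of (FPKM + 0.5) of every tested gene (points) in the growth factor genes and in each list of related genes, for GB vs. CON (left) and GB vs. GA (right). Filled points have an adjusted p under 0.05 and bars mark the median of a list. The medians of the growth factor genes (−0.42 and −0.37) lie to the left of those of the receptors (−0.058 and −0.060) and of the hypoxia genes (−0.0015 and −0.039). Those of the other ligands (−0.45 and −0.44) lie further left than the growth factor genes. The processing genes (−0.27 and −0.25) and the ERK feedback genes (−0.24 and −0.20) lie between the growth factor genes and the receptors.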

How the data were processed

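The authors trimmed reads with fastp 0.21.0, removed rRNA reads with Bowtie2, aligned the rest to ARS-UCD1.2 with HISAT2 2.2.1 and counted with RSEM 1.3.3. Deposited were FPKM values of each gene and library, which the authors rounded to 2 decimals and which were not rescaled here. For the annotation release and the use of strand, the sources used here give nothing. The authors' test, DESeq2 1.34.0, needs read counts, so limma 3.58.1 (R 4.3.3) was run on log2(FPKM + 0.5), with a variance trend, a mean per group, all 9 libraries in 1 fit and a mean FPKM minimum of 0.5. On this scale fold changes of genes of low FPKM are understated. Named genes were the 10 growth factor genes, the receptors, and from other lists the DEGs (at most 5) and the most abundant gene. Other list genes were named after their values had been seen. The genes and lists were chosen with earlier results of these data known. Listed genes without a row in the table were not analysed here, 1 further gene is not reported here, and list counts are over the rest. The procedure was tested on simulated data.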

Additional observations from a re-analysis of the deposited data

How the results depend on the processing

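The results were recomputed with a pseudocount of 1 or 0.1, without the filter or with a mean FPKM minimum of 1, with TPM or median-of-ratios scaling, without the variance trend, with only the 2 groups compared, with a replicate block, and without each library. Of the 16 growth factor differences past an adjusted p of 0.05, none changed direction under 287 such alternatives, and 18 alternatives ended a call, all for ANGPT1 in GB vs. CON or VEGFB in GB vs. GA. The count of DEGs in GB vs. CON (HGF) became 2 with a pseudocount of 0.1 or median-of-ratios scaling, the added gene being ANGPT1 (log2FC 1.53 and 1.01), and 0 to 3 with single libraries left out. In GB vs. GA it was 0 to 1 with single libraries left out, the 1 being PGF without GB3. ANGPT1 ranged from 0.78 to 1.25 and HGF from −1.30 to −0.99 in GB vs. CON over the left-out libraries. ANGPT1 was a DEG without CON1 or GB3, and it ranged from 0.71 to 1.53 over the other settings. The counts at an adjusted p under 0.05 stayed within 1.5 times their values.

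Differences that changed sign were all in GA vs. CON, and none passed the test in either setting. FGF2 became −0.0069 with TPM and −0.034 with median-of-ratios scaling, FGF7 −0.0073 and VEGFC −0.0096 with median-of-ratios scaling, and FGF10 0.024 with a pseudocount of 1. Over the left-out libraries FGF10 ranged from −0.32 to 0.46, with 0.0070 without CON1, 0.16 without CON3 and 0.46 without GA3. FGF2 ranged from −0.079 (without GA3) to 0.12, with −0.010 without CON2, and FGF7 from −0.035 (without GA3) to 0.12. The cause was not tested.

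Same-numbered libraries did not deviate together, with correlations of −0.031 to 0.077 over all tested genes, so the numbers were not read as pairs. With the replicate block the DEGs over all genes went from 504 to 503 in GB vs. CON, stayed at 458 in GB vs. GA and went from 9 to 5 in GA vs. CON, and the calls of ANGPT1 in GB vs. CON (0.0600) and VEGFB in GB vs. GA (0.0689) were lost. No scaling moved the median of all genes by over 0.1. For the genes of the related lists, 175 of 1942 alternatives ended a call and none turned one. FGF10 and ANGPT1 had the lowest FPKM of the 10 genes, and the reads behind them are unknown.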
